A study of Mus musculus with 1 sample.

Results

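Small leucine-rich proteoglycans are secreted matrix proteins whose curved repeat domain binds collagen fibrils and growth factors. The data described are those of 10 genes of this family, Dcn, Bgn, Lum, Fmod, Ogn, Prelp, Aspn, Omd, Kera and Epyc. They were found as all probe sets that the array's annotation pairs with that gene symbol alone, which gave 21 probe sets for the 10 genes, of 34945 named probe sets and 18193 named genes in all. No probe set with several symbols named a member. RNA from surface epithelial cells of the ovary of wild-type mice, 3 months of age, was hybridised to 1 Affymetrix mouse array. The design of the series names mice of 3 genotypes. The wild-type sample is the 1 analysed here, so no genotypes were compared, no value has a replicate error, and there is no test. How many animals gave the cells, and how the cells were collected, the sources used here do not say.

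Decorin, the product of Dcn, and biglycan, the product of Bgn, carry chondroitin or dermatan sulfate chains, whereas lumican, fibromodulin, keratocan and osteomodulin can carry keratan sulfate. The proteins set the diameter and spacing of collagen fibrils, hold TGF-beta in the matrix, and in shed form reach receptors on cells. In the ovary, a collagen-rich layer, the tunica albuginea, lies under the surface epithelium.

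Of the 10 members, 6 were above background in these cells: Dcn, Bgn, Ogn, Lum, Fmod and Prelp. Aspn, Omd, Kera and Epyc were not. A gene counted as above background when its brightest probe set was brighter than 46.5 (log2 value 5.54). This background limit is the 95th percentile of the intensities of 126 probe sets from families with no expected role in the ovary, namely keratin-associated proteins and the receptors for odours, pheromones and bitter taste. Over all named genes 62.8% were above it, so the members' share of 60.0% lay near that of genes at large. The share differed with the number of probe sets. Of all named genes with 1 probe set 47.3% passed, and of those with several 78.7%. Among the members 1 of 4 with 1 probe set passed, and 5 of 6 with several. Of the 21 member probe sets 15 exceeded the limit, beside 55.1% of all named probe sets. Fmod alone has 6 of the 21, and 10 of the 21 have identifiers marked a, s or x, the array maker's marks for probes that may match more than a single transcript. Among all named probe sets, 71.4% of the marked ones exceeded the limit against 50.3% of the others. The median level of the members' brightest probe sets was 8.11 on the log2 scale, beside 7.06 for all named genes. Affinity differs between probe sets, so levels are read against the limit and not ranked between genes.

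The distance of the brightest probe set from the limit was 8.34 on the log2 scale for Dcn, 8.73 for Bgn and 7.70 for Ogn. Lum, Fmod and Prelp lay between 2.42 and 2.81 above it. Of the members that did not pass, Aspn and Omd lay within 1 log2 unit of the limit, and Kera and Epyc about 2 units under it.

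**Figure D1:**
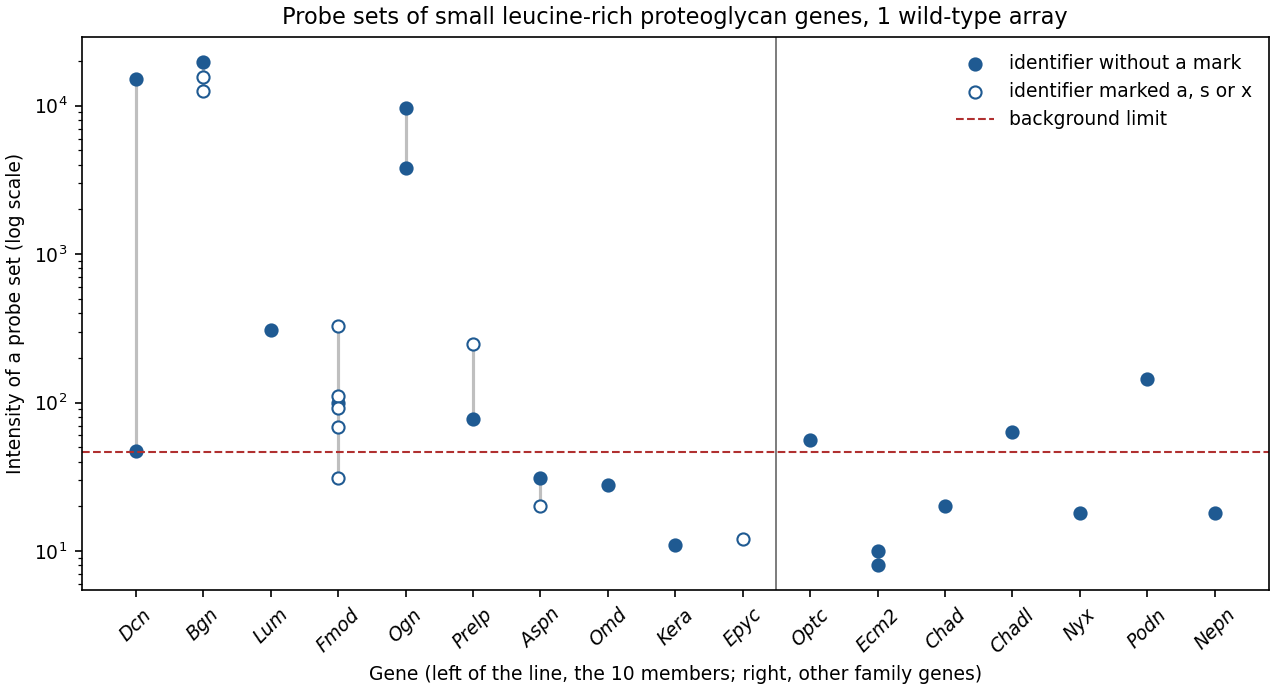
Intensity of each probe set (vertical, log scale) for the 10 members and 7 other family genes (horizontal) on the single wild-type array. Filled points have plain identifiers, open points have identifiers marked a, s or x, grey lines join the probe sets of a gene, and the dashed line is the background limit of 46.5. Bgn and Ogn lie far above the limit on every probe set, and Dcn on 1 of 2.

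Members of class I, the branch of decorin and biglycan, were above background in 2 of 3 cases, beside 62.8% of all named genes. Bgn, whose protein binds collagen and can signal through Toll-like receptors when released, had intensities of 19724, 15636 and 12582. The 3 probe sets lay close together, with an SD of 0.32 on the log2 scale, which is a spread between probe sets and not a replicate error. Over the 9010 genes with several probe sets the median of that SD was 1.39.

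Dcn, whose protein binds collagen fibrils and TGF-beta, had an intensity of 15048 on 1 probe set and only 47 on another. The brighter value was 324 times the limit, and the dimmer lay 0.015 log2 units above it, no farther than rounding to a whole number can move a value there. The distance between them was 8.32 on the log2 scale, and 86 of the 9010 genes with several probe sets, or 0.95%, had probe sets at least as far apart. What the dimmer probe set detects was not tested. Taken over both probe sets, the mean level of Dcn was 4.18 log2 units above the limit.

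Aspn encodes asporin, a class I protein with a run of aspartate residues in place of the sites for sugar chains. Its intensities were 31 and 20, both under the limit. The brighter lay at -0.58 log2 units from it. This probe set exceeded the limit when this was set at the 90th percentile of the background probe sets, an intensity of 25.5, or from olfactory and vomeronasal receptors alone, 29.3, so the call of Aspn depends on where the limit is set.

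Members of class II, the branch of lumican and fibromodulin, were above background in 3 of 5 cases, beside 62.8% of all named genes. Lum, whose protein spaces collagen fibrils in the cornea and in skin, had 1 probe set, at 307, a distance of 2.72 on the log2 scale from the limit. Fmod, whose protein binds type I collagen and lysyl oxidase, had 6 probe sets at 327, 110, 99, 92, 68 and 31. Of these 5 were above the limit and 1 was not, and Fmod was the only member with probe sets on both sides of it. Among all genes with several probe sets 46.7% had probe sets on both sides.

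The probe set of Fmod with a plain identifier had 99. The other 5 have identifiers marked x, the array maker's mark for probes that may bind other transcripts, and they include both the highest and the lowest value. Without marked probe sets Fmod lay 1.13 log2 units above the limit instead of 2.81. Its lowest probe set lay at -0.58 units.

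Prelp encodes a protein with a basic, heparin-binding N-terminus thought to anchor basement membranes to connective tissue. Its intensities were 249 and 77, both above the limit. The brighter has an identifier marked s, for probes shared between transcripts, and without it Prelp was 0.77 log2 units above the limit instead of 2.42.

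Omd and Kera, the other members of class II, were not above the limit. Omd, which encodes the bone-matrix protein osteomodulin, had an intensity of 28, at -0.73 log2 units from the limit. With the limit at the 90th percentile it was 0.13 units above. Kera, which encodes the corneal proteoglycan keratocan, had 11, at -2.08 units. The median of the background probe sets was 13, and Kera lay under that median.

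Class III was divided between its 2 members. Ogn, which encodes osteoglycin, also called mimecan, a regulator of collagen fibrils, had intensities of 9647 and 3804, both far above the limit, with an SD of 0.95 on the log2 scale. Epyc, which encodes epiphycan, a proteoglycan of growth plate cartilage, had 12 on its only probe set, at -1.95 log2 units from the limit. That probe set has a marked identifier, so Epyc had no value when such probe sets were left out.

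**Figure D2:**
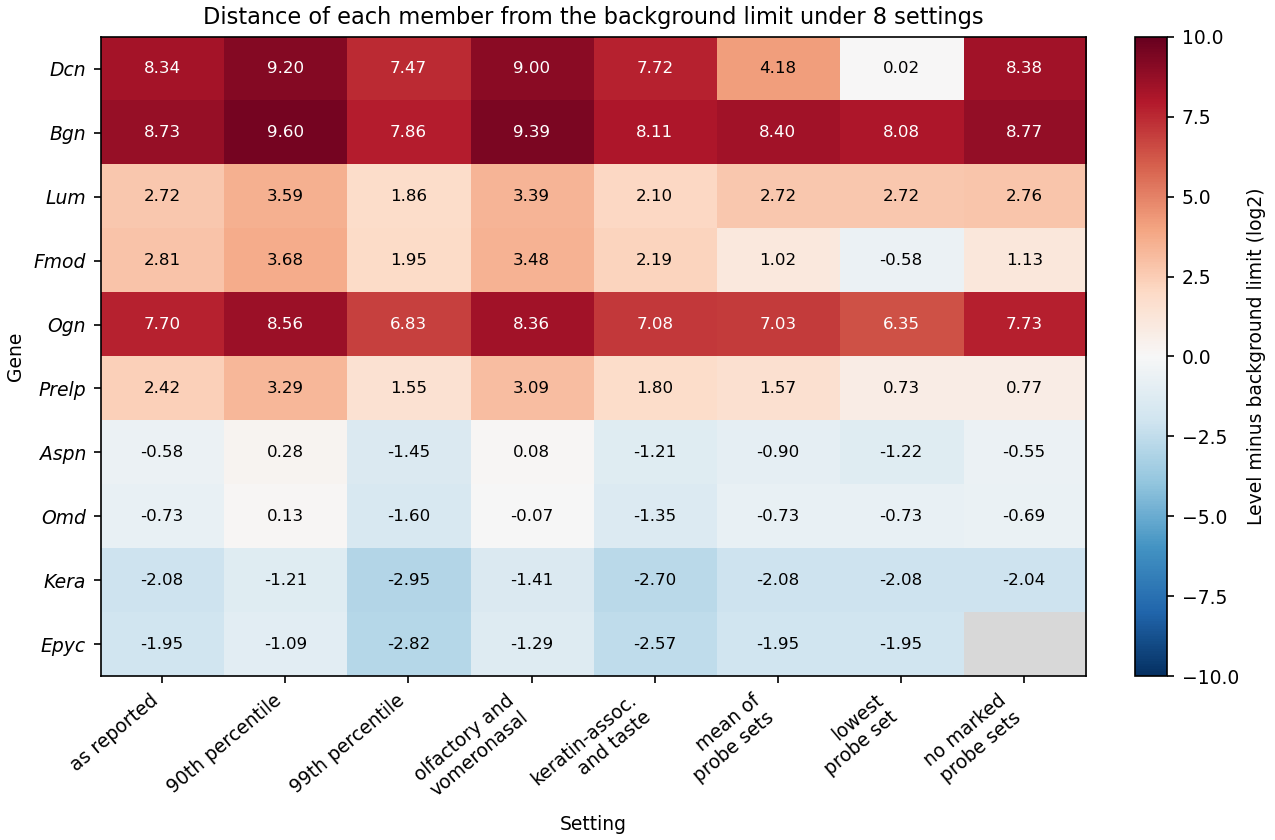
Level of each member minus the background limit (log2, colour and number) for the 10 members in rows, with the reported setting and 7 alternatives in columns. Red is above the limit, blue is below, and the grey cell has no probe set. Bgn and Ogn stayed at least 6.35 log2 units above the limit, Kera and Epyc stayed below, and Fmod, Aspn and Omd changed side under at least 1 alternative.

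The family genes outside the 10 were mostly near or below the limit, with 3 of 7 measured above. That share was 42.9%, beside 62.8% of all named genes and 47.3% of those with 1 probe set. The median number of probe sets in this list was 1. Podn, which encodes podocan, a collagen-binding relative made by smooth muscle, had 144. Chadl, a relative of the cartilage protein chondroadherin, had 63, and Optc, which encodes opticin of the vitreous of the eye, had 56. The last pair lay 0.44 and 0.27 log2 units above the limit, and with the limit at the 99th percentile Podn alone passed. Chad, which encodes chondroadherin, had 20, Nyx, the retinal protein nyctalopin, had 18, and Nepn, nephrocan, had 18. Ecm2, a matrix protein with a related repeat domain, had 10 and 8. None of these probe sets reached the limit. Tsku and Podnl1 were not analysed here.

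Most of these genes sit beside each other in the mouse genome, and adjacent genes could fall on opposite sides of the limit. In the order of protein-coding genes in the reference table of assembly GRCm38.p6, Optc, Prelp and Fmod form a run of 3, and all 3 were above it, Optc narrowly. In the run of Dcn, Lum, Kera and Epyc the first pair reached 15048 and 307 and the second pair 11 and 12. In the run of Ecm2, Aspn, Omd and Ogn the values were 10, 31, 28 and 9647, so Ogn alone was above the limit. Bgn is not next to another family gene.

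**Figure D3:**
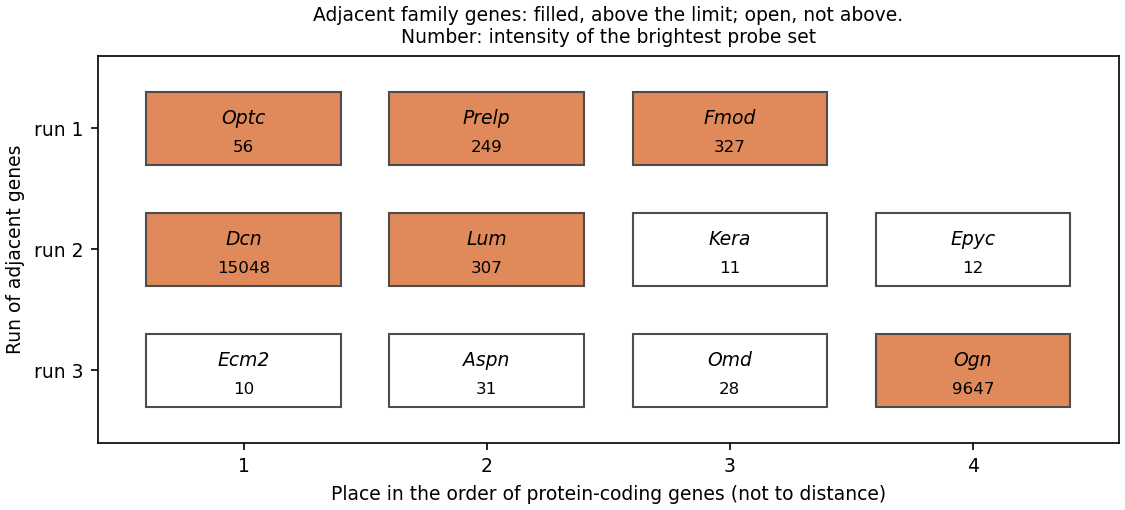
Runs of adjacent family genes (rows) in the order of protein-coding genes (horizontal, place in the run and not distance), with the intensity of the brightest probe set of each gene. Filled boxes are above the limit of 46.5 and open boxes are not, so that 2 of the 3 runs hold genes of both kinds.

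The promoters of Ogn and of its neighbours Omd and Aspn are shown because these adjacent genes fell on opposite sides of the limit, and that of Bgn because it was bright on every probe set. Each is the 250 bases before the start of the gene in RefSeq on assembly GRCm38.p6, read along the gene. Capitals mark matches, on either strand, to TATAAA, the TATA box core, to CCAAT, the CCAAT box, or to GGGCGG, the GC box to which Sp1 binds. Ogn lies on the plus strand at chr13:49607765-49608014, Omd on the plus strand at chr13:49582212-49582461, Aspn on the plus strand at chr13:49544193-49544442, and Bgn on the plus strand at chrX:73483351-73483600.
Ogn: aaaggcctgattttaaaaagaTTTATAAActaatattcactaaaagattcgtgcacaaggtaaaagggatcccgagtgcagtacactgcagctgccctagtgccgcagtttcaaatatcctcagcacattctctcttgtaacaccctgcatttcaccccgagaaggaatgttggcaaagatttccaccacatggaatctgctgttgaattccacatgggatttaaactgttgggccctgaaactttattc
Omd: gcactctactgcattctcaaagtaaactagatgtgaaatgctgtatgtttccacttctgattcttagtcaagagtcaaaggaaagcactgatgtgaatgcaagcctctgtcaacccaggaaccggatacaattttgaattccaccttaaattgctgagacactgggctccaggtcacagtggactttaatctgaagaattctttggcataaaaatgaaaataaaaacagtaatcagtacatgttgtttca
Aspn: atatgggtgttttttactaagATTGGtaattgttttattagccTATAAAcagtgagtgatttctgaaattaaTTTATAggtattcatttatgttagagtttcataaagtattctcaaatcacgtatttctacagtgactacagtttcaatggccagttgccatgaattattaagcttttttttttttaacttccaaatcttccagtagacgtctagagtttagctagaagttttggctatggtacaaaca
Bgn: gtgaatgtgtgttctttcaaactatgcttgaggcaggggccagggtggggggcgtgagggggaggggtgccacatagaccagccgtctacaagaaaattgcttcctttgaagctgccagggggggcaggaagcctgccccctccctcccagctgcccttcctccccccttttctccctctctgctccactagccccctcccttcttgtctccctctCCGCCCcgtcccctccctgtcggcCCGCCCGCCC

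The window of Bgn held 3 matches to GGGCGG, of which 2 overlap, beginning 34, 10 and 6 bases before the start, and none to the other motifs. The window of Ogn held 2 overlapping matches to TATAAA, beginning 229 and 227 bases before the start. Aspn had 2 matches to TATAAA and 1 to CCAAT, and Omd had none of the 3 motifs. Over all 32851 windows of this length 12.4% held TATAAA, 33.8% CCAAT and 32.7% GGGCGG. Bases G and C made up 64.4% of the Bgn window, 42.0% of that of Ogn, 38.4% of that of Omd and 30.0% of that of Aspn, beside a median of 52.4% over all windows. The motifs were chosen with the members' levels known, and a match describes the letters and not a bound site.

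For the enzymes that build the sugar chains, the lists are given by step. For chondroitin and dermatan sulfate, a linker of sugars is first put on a serine of the core protein. All 5 measured enzymes of this linker were above background, beside 62.8% of all named genes. Xylt2, which adds the xylose that starts the linker, had 66, close to the limit. B4galt7, which adds the first galactose, had 142 and 77, and B3galt6, which adds the second, passed on 2 of 3 probe sets with 140 at most. Read by the lowest probe set, 3 of the 5 passed, beside 39.7% of all named genes.

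Of 16 genes for the chondroitin and dermatan sulfate chains of decorin and biglycan, 10 were above background. Csgalnact1 and Csgalnact2, which both start the chain, differed: the first had 27 and 10, under the limit, and the second had 1112. Chsy1, a chain polymerase, had 828, and its relative Chsy3 had 11 and 9. The sulfotransferases Chst3, Chst7, Chst13 and Chst15 were also not above the limit, with at most 38, 33, 36 and 43. Dse and Dsel, the epimerases that turn chondroitin into dermatan sulfate, had 345 and 1055, and Chst14, which sulfates dermatan, had 579. Apart from Csgalnact1, Csgalnact2 and Chsy1, these genes were named after their values were seen. The share above the limit was 62.5%, near that of all named genes.

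Of 8 genes for keratan sulfate, the chain that lumican and fibromodulin can carry, 5 were above background. This share of 62.5% lay near the 62.8% of all named genes. B3gnt7, which extends the chain, had 115. B3gnt2, which also makes other poly-lactosamine chains, had 472 and 64, and B4galt1, a galactosyltransferase of many glycans, had 2730. The genes not above the limit were all sulfotransferases: Chst2 had 30 at most, Chst4 had 10 and Chst5 had 26. A further sulfotransferase, Chst1, named after its value was seen, passed at 68. When marked probe sets were left out 2 of the 4 genes still measured passed.

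All 6 genes for sulfate supply and tyrosine sulfation were above background, beside 62.8% of all named genes. Read by the lowest probe set, 4 of the 6 passed, beside 39.7% of all named genes. Papss1 and Papss2, which make the activated sulfate donor, had 1121 and, on the brightest of 4 probe sets, 322. Slc35b2, which carries the donor into the Golgi, had 529 and 201.

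Of 12 proteases and enhancers that act on the core proteins or on procollagen, 8 were above background. This share of 66.7% lay near the 62.8% of all named genes. The brightest probe sets of the 8 ranged from 111 for Adamts4 to 10810 for Mmp2. Bmp1, which trims the propeptides of biglycan and osteoglycin, passed on 2 of 3 probe sets with 1014 at most. Its relatives Tll1 and Tll2 had 14 and 16, under the limit.

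Matrix partners of the family, a list of collagens, other matrix proteins and lysyl oxidase, were above background in 14 of 16 cases. This share was 87.5%, beside 62.8% of all named genes. The median number of probe sets in this list was 2, and 78.7% of all named genes with several probe sets passed. Read by the lowest probe set, 11 of the 16 passed, beside 39.7% of all named genes. Col1a1, Col1a2 and Col3a1, chains of the main fibrillar collagens, reached 8290, 29972 and 22640. The lowest probe set of Col1a2 had 159. Col2a1, the cartilage collagen, had 26, and Tnxb, a tenascin that binds decorin, had 31, neither above the limit.

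TGF-beta and BMP ligands and receptors were above background in 6 of 7 cases, beside 62.8% of all named genes. The median number of probe sets in this list was 2, and 78.7% of all named genes with several probe sets passed. Tgfb1, Tgfb2 and Tgfb3, the ligands that decorin and biglycan bind, reached 204, 876 and 2851. The dimmer probe set of Tgfb1 had 22, under the limit. Bmp2, a related ligand, had 15 and was the exception. When each gene was read by its lowest probe set, 3 of the 7 passed, beside the same 39.7%.

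Of 12 cell surface receptors described for decorin, biglycan or lumican, 11 were above background. The median number of probe sets in this list was 2.5, and 78.7% of all named genes with several probe sets passed. Egfr, the receptor for epidermal growth factor, passed on 5 of 7 probe sets with 1150 at most. Met, the receptor for hepatocyte growth factor, had 977 and 20, and Igf1r, the receptor for insulin-like growth factor, had 599 on the brightest of 5. Itga2, a collagen-binding integrin subunit, had 29 and did not pass. Read by the lowest probe set, 3 of the 12 passed, beside 39.7% of all named genes.

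Proteoglycans outside the family were above background in 16 of 26 cases. Vcan, a large hyaluronan-binding proteoglycan of soft matrix, passed on 2 of 8 probe sets with 84 at most. Acan, the cartilage counterpart, had 24, and Ncan, that of brain, had 27 at most, neither above the limit. The share of these genes that passed, 61.5%, and that of the 10 members, 60.0%, both lay near the 62.8% of all named genes.

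**Figure D4:**
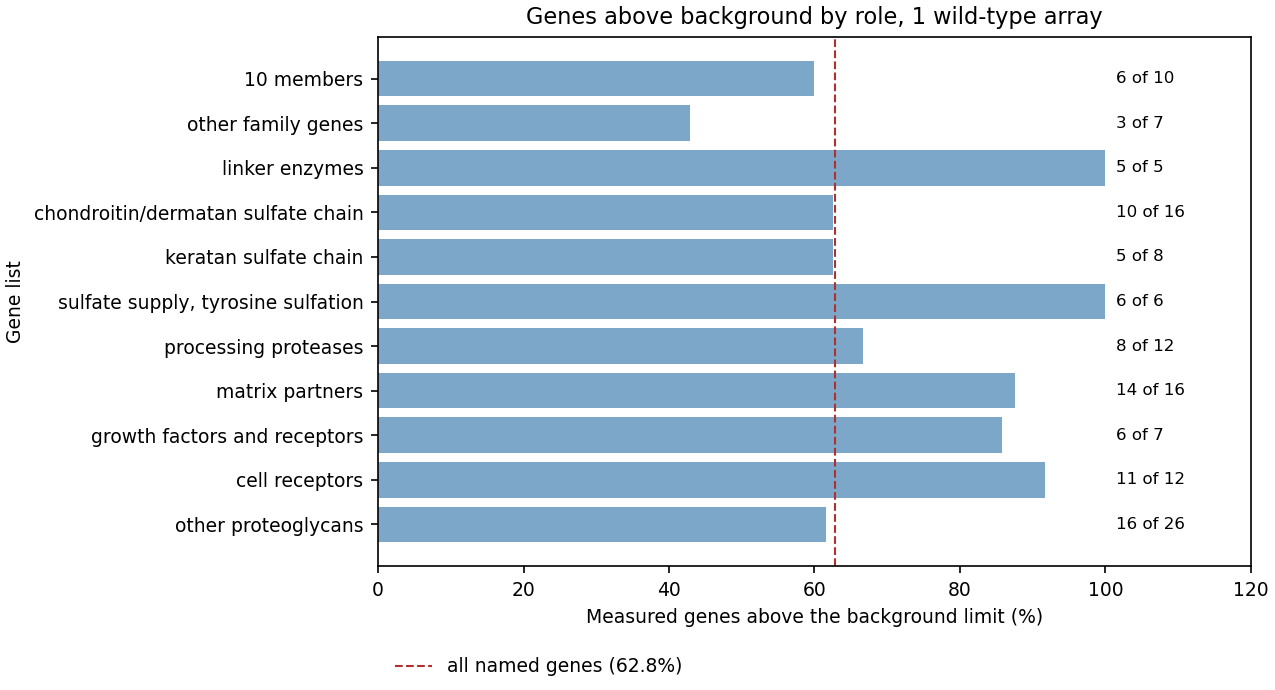
Share of measured genes above the background limit (horizontal, percent) for the 10 members and 10 lists of genes by role, with counts at the right, on the single wild-type array. The dashed line is the 62.8% of all named genes and takes no account of the number of probe sets per gene. Members, chondroitin and keratan sulfate genes and other proteoglycans lie near the line, and proteases slightly to its right. Linker, sulfate supply, matrix partner, growth factor and receptor genes lie farther to its right. The 3 of 7 other family genes lie to its left.

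RNA was measured in bulk, so fewer cells of a type and less RNA per cell cannot be told apart, nor can transcripts of other cells and those of the epithelial cells. All 11 markers of ovarian surface epithelium and mesothelium were above background, with brightest probe sets from 2047 to 20836. Of 10 fibroblast markers 8 were, from 193 to 29972, while the fibroblast genes Dpt and Pi16 had at most 13 and 36. For smooth muscle and pericytes 8 of 9 markers were, from 209 to 23141, and Rgs5, of pericytes, had at most 16. The surface, fibroblast and smooth muscle shares were 100%, 80% and 88.9%, beside 62.8% of all named genes. Of all named genes with several probe sets 78.7% passed. The median number of probe sets was 2 in the fibroblast and smooth muscle lists and 1 in the surface list. Macrophage markers passed in 5 of 7 cases, from 47 for Adgre1 to 527 for Csf1r. Granulosa and theca markers passed in 4 of 6, from 58 for Amh to 1438 for Inha. These macrophage and granulosa shares of 71.4% and 66.7% lie near the 62.8% of all named genes. The median number of probe sets was 1 in both lists, and 47.3% of all named genes with 1 probe set passed. Endothelial markers passed in 1 of 8, Kdr being that gene. None of 8 cartilage markers and neither of 2 corneal epithelium markers passed. Of 5 measured bone markers 1 passed, Sp7 at 113, and of 3 tendon markers 1 passed, Scx at 64. Which cells carried the transcripts of Dcn, Bgn and Ogn was not tested.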

How the data were processed

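Per the labels' protocols, 5 ug of total RNA was turned into biotinylated cRNA. The deposited value table holds 1 intensity for each of 45101 probe sets, made by the authors with affy and RMA per the submitters' processing notes. The tool versions and the set of arrays normalized with this 1 are not stated in these sources. Log2 values are the usual output of RMA, and the deposited intensities are whole numbers on a linear scale from 6 to 32341, so the step between is unknown. At the limit, rounding can shift a log2 value by 0.02, and by 0.06 at an intensity of 11. RMA compresses differences between low intensities.

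Symbols came from the platform annotation, and those of all 21 member probe sets matched the gene table of GRCm38.p6. Control probe sets were left out. A gene's level was the log2 intensity of its brightest probe set. With 1 array the precision is unknown, and no test was made. Members and lists were chosen with earlier results of these data known. All members and measured family genes were named, then the first 3 measured genes of each role list and up to 3 on its smaller side, with others stated, while cell type lists were given by counts and their exceptions. The planned search of protein features was not made. Promoter sequences are from RefSeq, and 8 members had one. Alternatives were other limits and background genes, the mean or lowest probe set, and the removal of marked probe sets. The scripting tools were pandas 2.3.3, NumPy 2.4.6 and matplotlib 3.10.9 under Python 3.11.15.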

Additional observations from a re-analysis of the deposited data

How the results depend on the processing

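With 1 array no setting changes a test. The 10 members were each set against the limit under 7 alternatives, and 7 members stayed on the same side under all that gave a value. The count of members above the limit was between 5, by the lowest probe set, and 8, at the 90th percentile, settings under which 39.7% and 73.2% of all named genes passed. At the 90th percentile, Aspn moved to 0.28 and Omd to 0.13 log2 units above the limit, and 2 cartilage and 2 bone markers passed. With olfactory and vomeronasal receptors as background, Aspn was 0.081 above and 2 bone markers passed. At the 99th percentile, and with keratin-associated proteins and bitter taste receptors as background, 1 family gene outside the members and 0 tendon markers passed. With the mean of the probe sets, Dcn was 4.18 and Fmod 1.02 above the limit, and 0 tendon markers passed. With the lowest probe set, Dcn was 0.015 and Prelp 0.73 above and Fmod was at -0.58, and 3 linker, 3 growth factor, 3 receptor, 5 smooth muscle and 0 tendon genes passed. Without marked probe sets, 8 of 11 member probe sets passed, beside 50.3% of all unmarked named probe sets at the limit of 46.5. Fmod was then 1.13 and Prelp 0.77 above, Epyc had no value, and 2 keratan sulfate genes passed. Of the 20 other lists 11 stayed within 1.5 times their count under all alternatives. The chondroitin and dermatan sulfate list is among those 11, although its count ranged from 9 to 15. Values near the limit cannot be told from background on 1 array, which bears on Aspn, Omd, Optc, Chadl and the dimmer probe set of Dcn. It also bears on genes of the other lists that narrowly passed, such as Xylt2, Chst1, Scx, Amh and Adgre1. The same holds for some that narrowly did not, such as Csgalnact1, Chst2, Chst3, Chst5, Chst7, Chst13, Chst15, Tnxb, Itga2 and Col2a1.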
